A study of Mus musculus with 4 samples.

Results

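The 10 genes described here are imprinted genes whose parental marking rests on DNA methylation inherited from the oocyte: Peg3, Airn, Igf2r, Peg10, Impact, Nnat, Grb10, Zrsr1, Peg13 and Nap1l5. They were chosen by name from 55413 genes of GENCODE release M21 on the mm10 build. For each gene, CpG methylation was averaged within 1 kb of every annotated transcript start, and separately over the rest of the gene record. Reduced representation bisulfite sequencing (RRBS) was available from 4 mouse libraries. R1 ESCs were wild-type embryonic stem cells, and R1 neurons were derived from them through embryoid bodies of 2 days and a neural culture that the labels give as 10 to 15 days. Tet/Tet ESCs carried tet-off constructs that had been knocked into the R1 line behind the promoter of Dnmt1, which encodes the maintenance DNA methyltransferase, and per the study's methods these cells and their neurons overexpress DNMT1. Tet/Tet cells were grown with puromycin at 1 µg/ml and neomycin at 150 µg/ml, and Tet/Tet neurons were derived in the same way as R1 neurons. Each line was a single cell line, and RRBS was done on 1 library per condition.

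At an imprinted gene of this kind, a CpG island that is methylated in the egg and bare in the sperm keeps that difference through the wave of erasure in the early embryo, because ZFP57 binds a methylated hexamer and brings in TRIM28. Such an island then carries methylation on the maternal copy alone, and the average over both copies lies about midway between bare and full methylation. In most of these genes the RNA is made from the unmarked paternal copy. Igf2r is an exception, since its mark is the promoter of the antisense RNA Airn within Igf2r and the gene itself is expressed from the maternal copy. Grb10 is another, since it is expressed from the maternal copy in most tissues and from the paternal copy in neurons. An average near 50% does not by itself show that methylation is divided between the parental copies, because the deposited values do not separate the alleles.

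The fewest CpG sites, 2311939, were listed for R1 ESCs and the most, 5298360, for R1 neurons, and 1545651 sites were listed in all 4. Where 4 levels follow each other, they stand for ESCs of R1 and of Tet/Tet and then for neurons of R1 and of Tet/Tet. Each value is the percentage of reads that showed a cytosine at the site. The number of reads behind it is unknown, so every site counted equally and no interval was computed. The SD given with a mean is over sites of a region. CpGs of the same restriction fragment are read together, so this SD is not an error between cultures, and with 1 library per condition no difference was tested. ESC and neuron libraries belonged to different sequencing projects, and cell type and project cannot be told apart. For Tet/Tet neurons, chromosomes 8 and 9 and stretches of 7 and 10 were not analysed here, but all 10 genes lie outside them. Among markers of cell type, the start of Pou5f1, a pluripotency factor, was at 2.36% in ESCs and 31.7% in neurons of R1, and the values in Tet/Tet were 6.13% and 4.79%. The germline gene Ddx4 was at 8.09% and 84.3% in R1 and at 7.22% and 17.3% in Tet/Tet. Of the other germline genes with a value, Dazl was at 10.6% and 57.2% in R1 and at 16.8% and 10.9% in Tet/Tet. Mael was at 16.3% and 87.2% in R1 and at 18.6% and 21.6% in Tet/Tet. At least 5 shared sites were found for 1 of 5 pluripotency genes, 3 of 5 neuron genes and 3 of 4 germline genes, and the start was higher in R1 neurons than in R1 ESCs by at least 10 points in 1, 1 and 3 of them, against 47.1% of all genes with a value. RNA was not analysed here, so cell type was not checked by expression.

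Stretches of 150 bases are printed for 4 loci that show the different patterns described below, from the mm10 reference, 5′ to 3′ along the strand of the named gene, with every CpG in capitals. They were picked from the 6 stretches with the most listed CpGs outside exons. The Airn stretch (chr17:12742236-12742385, plus strand) lies within both Airn and Igf2r, outside every annotated exon, and was low in R1 ESCs and intermediate in R1 neurons. The Igf2r stretch (chr17:12769665-12769814, minus strand) lies just upstream of the main Igf2r start, within Airn, and was low in all 4 libraries. The Nnat stretch (chr2:157559470-157559619, plus strand) lies upstream of Nnat within the record of Blcap. The Peg13 stretch (chr15:72810573-72810722, minus strand) lies upstream of Peg13 within the record of Trappc9 and was the most methylated of the 4 in each library.
Airn: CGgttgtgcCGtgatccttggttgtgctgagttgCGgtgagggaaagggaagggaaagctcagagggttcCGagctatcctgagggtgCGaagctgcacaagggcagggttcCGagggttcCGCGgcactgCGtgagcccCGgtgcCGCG
Igf2r: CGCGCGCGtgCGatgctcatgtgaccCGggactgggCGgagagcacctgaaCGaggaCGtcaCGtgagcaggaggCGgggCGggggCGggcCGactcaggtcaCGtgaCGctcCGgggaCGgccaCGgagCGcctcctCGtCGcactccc
Nnat: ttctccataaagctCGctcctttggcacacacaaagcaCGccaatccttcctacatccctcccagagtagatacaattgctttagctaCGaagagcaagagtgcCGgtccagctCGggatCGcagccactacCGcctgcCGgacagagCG
Peg13: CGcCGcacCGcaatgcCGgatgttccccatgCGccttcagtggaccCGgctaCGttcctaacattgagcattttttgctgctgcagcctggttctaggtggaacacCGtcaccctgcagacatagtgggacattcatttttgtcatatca

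Over its 10 listed CpGs the Airn stretch had a mean of 15.3% ± 1.77 (SD over sites) in ESCs and 48.8% ± 3.08 in neurons of R1, and 1.93% ± 3.40 and 3.13% ± 2.85 in those of Tet/Tet. Its CpGs lay between 44.6% and 54.0% in R1 neurons and none exceeded 17.1% in R1 ESCs. The 22 CpGs of the Igf2r stretch averaged 2.71%, 2.18%, 9.31% and 4.98%. The 6 listed CpGs of the Nnat stretch averaged 12.9%, 27.7%, 72.9% and 16.9%, and the 7 of the Peg13 stretch averaged 38.4%, 84.7%, 91.3% and 30.5%.

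Around the transcript starts, each of the 10 genes had at least 10 sites listed in all 4 libraries. A level was counted as intermediate when the mean lay from 35% to 65%. In R1 ESCs 1 of 10 genes, Peg13, lay in this band, where 11.1% of the 17967 genes with at least 5 shared sites did. In Tet/Tet ESCs none of the 10 lay there, against 10.6% of all genes. In R1 neurons 5 of 10 did, namely Peg3, Airn, Impact, Nnat and Nap1l5, against 8.61% of all genes. In Tet/Tet neurons none of the 10 did, against 0.601% of all genes. The same 5 genes were the ones with an intermediate level in R1 neurons and a level under 25% in each of the other 3 libraries, a combination that 7.19% of all genes had. Over CpG island sites alone, which was chosen after seeing the data, 5 of the 10 genes had this combination, against 3.63% of 13305 genes.

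**Figure D1:**
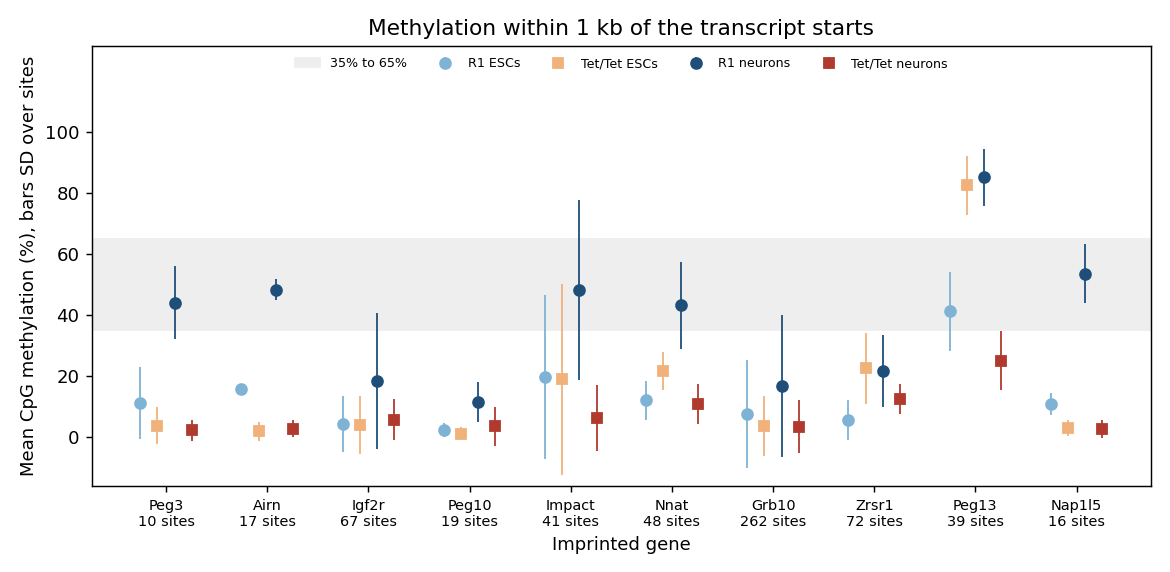
Mean CpG methylation in percent within 1 kb of the transcript starts of the 10 imprinted genes (horizontal axis, with the number of shared sites), with 1 point for each library and bars for the SD over sites. The grey band runs from 35% to 65%. R1 neurons (dark blue circles) lie in it at Peg3, Airn, Impact, Nnat and Nap1l5, and R1 ESCs (light blue) lie in it only at Peg13.

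Peg3 (ENSMUSG00000002265.16, chromosome 7, 6703892 to 6730431, minus strand) encodes a zinc finger protein and starts back to back with Usp29. Over 10 sites its start was at 11.2% ± 11.9 in ESCs and 44.1% ± 11.8 in neurons of R1, and 3.85% ± 6.05 and 2.34% ± 3.49 in those of Tet/Tet. R1 neurons were the high library, with 8 of the 10 sites between 35% and 65%, and in Tet/Tet neurons all 10 were under 10%. In R1 ESCs the 10 sites ranged from 0% to 25.5% and overlapped with R1 neurons, where the lowest site was at 20%. Of these sites in R1 ESCs, 5 were under 10% and the others lay between 21.3% and 25.5%, so the mean lay between 2 sets. With windows of 2 kb, which hold 15 sites, R1 ESCs were at 29.2% and R1 neurons at 43.7%, a difference of 14.6 points. Peg3 was then no longer under 25% in R1 ESCs, and 4 of the 10 genes were intermediate in R1 neurons alone and under 25% elsewhere.

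Airn (ENSMUSG00000078247.4, chromosome 17, 12741311 to 12860136, plus strand), the noncoding RNA that silences Igf2r on the paternal chromosome, had the smallest SD over sites of the 10 genes in both R1 libraries. Its 17 sites averaged 15.8% ± 1.76 in ESCs of R1 and 48.3% ± 3.46 in its neurons, and 1.99% ± 3.16 and 2.89% ± 2.82 in the same cells of Tet/Tet. All 17 were in the 35% to 65% band in R1 neurons and all 17 were between 10% and 25% in R1 ESCs, so the ranges of these libraries did not overlap. The mean over every site a library listed there was higher in R1, at 40.3% over 29 sites in ESCs and 66.6% over 46 in neurons. With each library's own sites Airn was thus intermediate in R1 ESCs and above the band in R1 neurons.

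Nap1l5 (ENSMUSG00000055430.4, chromosome 6, 58905233 to 58907076, minus strand), an intronless gene of the nucleosome assembly protein family within Herc3, was also low in every library but R1 neurons. Its 16 sites averaged 10.9% ± 3.5 in ESCs and 53.6% ± 9.63 in neurons of R1, and 3.04% ± 2.57 and 2.71% ± 3.05 in those of Tet/Tet. In R1 neurons 15 of 16 sites lay in the band, and the lowest, at 37.7%, was above the highest of R1 ESCs, at 19.1%. This held for the shared sites only. Over all 42 CpG island sites that R1 neurons listed there, the mean was 51.8% ± 30.4 and single sites ran from 0% to 100%.

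Nnat (ENSMUSG00000067786.16, chromosome 2, 157560078 to 157562522, plus strand) encodes neuronatin, a small membrane protein of the developing brain. Its 48 sites averaged 12.1% ± 6.28 in ESCs of R1 and 43.3% ± 14.2 in its neurons, and 21.7% ± 6.10 and 10.9% ± 6.47 in the same cells of Tet/Tet. Here Tet/Tet ESCs were above R1 ESCs at 47 of 48 sites. The mean in R1 neurons combined levels of 73.2% ± 4.56 over the 5 sites from 500 to 251 bp upstream of the gene start with 35.1% ± 0.944 over the 10 sites from 250 to 499 bp downstream.

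Impact (ENSMUSG00000024423.6, chromosome 18, 12955852 to 12992950, plus strand), a regulator of translation under amino acid stress, had 41 sites, which averaged 19.9% ± 26.8 in ESCs and 48.1% ± 29.5 in neurons of R1, and 19% ± 31.3 and 6.35% ± 10.9 in those of Tet/Tet. Its starts differed among themselves. The window at the gene start, which is the outermost annotated start, touches no CpG island, while the next 2 windows downstream touch 2 and 1. In the 3 windows at and nearest the gene start, R1 neurons were at 34.2% over 7 sites, 35% over 13 and 26.8% over 11, R1 ESCs at 3.27% to 9.65% and Tet/Tet neurons at 0.761% to 2.81%. In the 2 windows farthest downstream, R1 neurons were at 100% over 3 sites and 97.6% over 7. The level of Impact near 50% was thus a mixture of windows below and above, and of its 5 windows only the 1 at 35% was in the band.

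Peg13 (ENSMUSG00000106847.1, chromosome 15, 72805600 to 72810324, minus strand), a noncoding RNA inside an intron of Trappc9, had the highest level of the 10 genes in every library. Its 39 sites averaged 41.2% ± 12.9 in ESCs of R1 and 85.0% ± 9.29 in its neurons, and 82.4% ± 9.69 and 25.1% ± 9.55 in the same cells of Tet/Tet. R1 ESCs had 28 of 39 sites in the 35% to 65% band. Tet/Tet ESCs and R1 neurons had 34 and 33 sites above 75%, and Tet/Tet neurons had 23 under 25%.

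Zrsr1 (ENSMUSG00000044068.7, chromosome 11, 22972005 to 22976496, plus strand), a retrogene related to a splicing factor and placed within Commd1, had its higher level in Tet/Tet among ESCs and in R1 among neurons. Its 72 sites averaged 5.65% ± 6.55 in ESCs and 21.6% ± 11.7 in neurons of R1, and 22.6% ± 11.6 and 12.6% ± 4.79 in those of Tet/Tet. In R1 neurons the level varied along the gene, from 12.6% ± 5.75 over the 12 sites from 500 to 749 bp downstream of the start to 50.9% ± 12.1 over the 5 sites from 2000 to 2249 bp.

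The start windows of Igf2r, Peg10 and Grb10 had means over sites under 20% in every library, but with means of 100 bp stretches R1 neurons were at 32.3% for Igf2r and 31.8% for Grb10. Igf2r (ENSMUSG00000023830.14, chromosome 17, 12682406 to 12769664, minus strand), the receptor that clears insulin-like growth factor 2, averaged 4.39% ± 9.26 in ESCs of R1 and 18.4% ± 22.2 in its neurons, and 3.99% ± 9.55 and 5.85% ± 6.83 in the same cells of Tet/Tet over 67 sites. The window at its main start, with 63 of these sites, was at 14.2% ± 14.7 in R1 neurons, and 4 sites at an internal start were at 84.9% ± 12.0. Peg10 (ENSMUSG00000092035.8, chromosome 6, 4747306 to 4760517, plus strand), a gene derived from a retrotransposon and needed in the placenta, averaged 2.39% ± 2.33, 1.26% ± 2.06, 11.6% ± 6.63 and 3.67% ± 6.41 over 19 sites. Grb10 (ENSMUSG00000020176.17, chromosome 11, 11930508 to 12038683, minus strand), an adaptor that restrains insulin and growth factor signalling, averaged 7.69% ± 17.6, 3.81% ± 9.79, 16.8% ± 23.3 and 3.55% ± 8.61 over 262 sites. Its starts differed as well. The window at the upstream start was at 7.83% ± 15.0 in R1 neurons over 144 sites, and the window with the 3 starts downstream of it was at 25.6% ± 24.4 over 114.

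**Figure D2:**
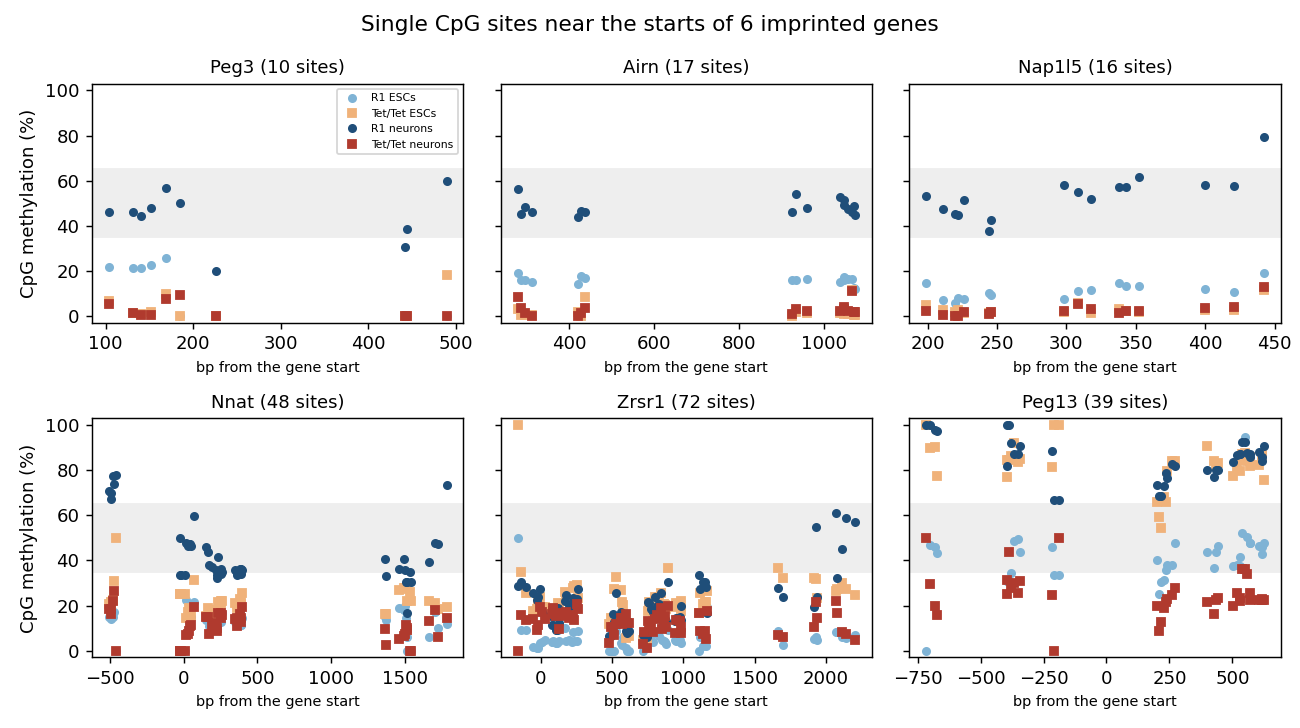
Methylation of single CpG sites in percent against the distance in bp from the gene start, for 6 of the imprinted genes, with 1 colour for each library and the grey band from 35% to 65%. All 17 sites of Airn in R1 neurons lie in the band, while at Nnat those about 500 bp upstream of the start lie above it, between 67.3% and 77.8%.

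Between R1 ESCs and R1 neurons, 8 of the 10 start regions were higher in neurons by at least 10 percentage points, against 47.1% of all genes, and none was lower, against 0.111% of all genes. The median difference of the 10 genes was 29.7 points, where the median of all genes was 8.51 with quartiles of 1.76 and 31.9. The difference was 43.8 points at Peg13, 42.7 at Nap1l5, 32.8 at Peg3, 32.5 at Airn, 31.2 at Nnat, 28.3 at Impact, 16.0 at Zrsr1 and 14.0 at Igf2r. At Peg3, Airn, Nnat and Nap1l5 every shared site was higher in R1 neurons. Peg10 and Grb10 lay just under the limit, with differences of 9.18 and 9.12 points. With means of 100 bp stretches the difference was 17.9 points at Grb10 and 24.6 at Igf2r, and with medians of sites it was 4.39 and 8.76.

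The Tet/Tet line had no such difference in that direction. None of the 10 genes was higher in neurons than in ESCs by at least 10 points, against 0.779% of all genes, and 3 were lower, against 21.7%. The median difference was -0.921 points, beside -0.891 for all genes. Peg13 was lower by 57.3 points, at all 39 of its sites. Impact differed by -12.7 points and Nnat by -10.7, with 47 of 48 sites of Nnat lower in neurons, and Zrsr1 lay just under the limit at -9.98. The other 6 genes differed by -1.52 to 2.42 points, and their levels were under 6% in both Tet/Tet libraries. Peg13, Impact and Nnat were thus higher in R1 neurons and lower in Tet/Tet neurons than in the ESCs of the same line, which held for 20.7% of all genes. The difference at Impact was -0.549 points in the window of the gene start alone, which has 7 sites and touches no CpG island. In CpG islands alone it was -8.87. Over all settings tried it lay between -24.1 points with windows of 500 bp and -0.406 with medians of sites. In the windows at and nearest the gene start, Tet/Tet ESCs were at 3.01%, 2.38% and 1.72%. Tet/Tet neurons were at 2.47%, 2.81% and 0.761% there. In the windows farthest downstream, Tet/Tet ESCs were at 83.3% over 3 sites and 65.7% over 7, and Tet/Tet neurons at 0% and 28.3%. The lower mean of Impact thus came from these downstream windows.

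**Figure D3:**
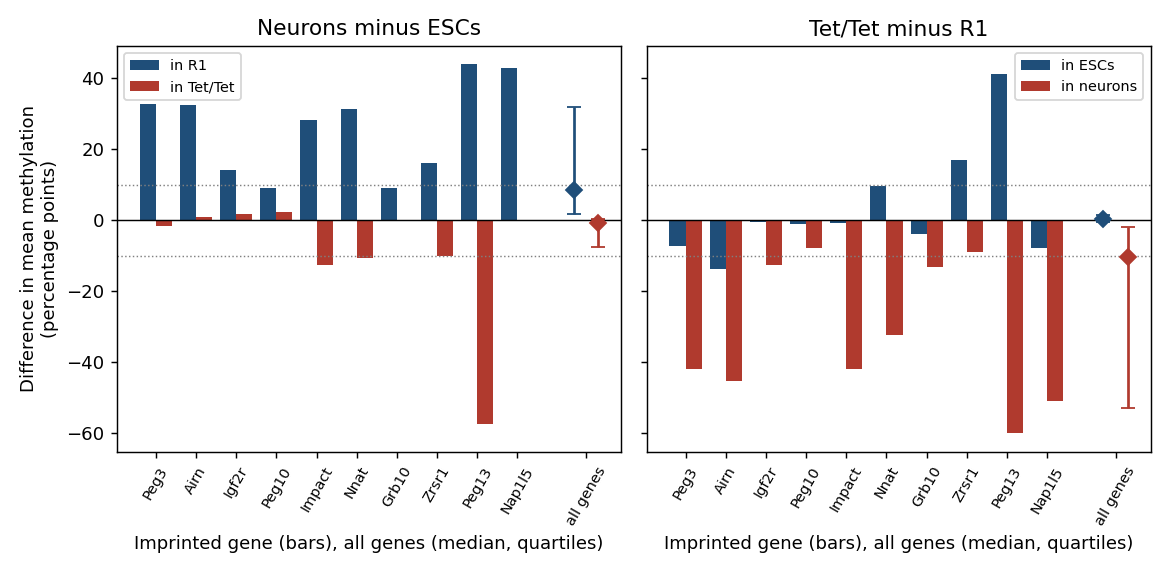
Differences in mean methylation at the start regions, in percentage points, with bars for the 10 imprinted genes and diamonds with quartile bars for all 17967 genes. Left, neurons minus ESCs in R1 (blue) and in Tet/Tet (red), and right, Tet/Tet minus R1 in ESCs (blue) and in neurons (red), with dotted lines at 10 points. All 10 bars of R1 point up on the left, and all 10 bars of neurons point down on the right.

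Set against R1 in the same cell type, Tet/Tet ESCs differed in both directions. Peg13 was higher by 41.2 points, Zrsr1 by 16.9 and Nnat by 9.59, and Airn was lower by 13.8. With each library's own sites the difference at Nnat was -2.99 points, in the other direction. By the limit of 10 points 2 genes were higher, against 6.50% of all genes, and 1 was lower, against 2.47%. Airn was lower at all 17 sites, and Nap1l5 was lower at all 16 with a mean difference of -7.88 points. In neurons 8 of 10 genes were lower in Tet/Tet than in R1 by at least 10 points, against 50.9% of all genes, and none was higher, against 0.0278%. Peg13 differed by -59.9 points, Nap1l5 by -50.9, Airn by -45.4, Impact by -41.8, Peg3 by -41.7 and Nnat by -32.3. The remaining values were -13.3 at Grb10, -12.6 at Igf2r, -9.06 at Zrsr1 and -7.89 at Peg10. The median of the 10 genes was -37.0 points, beside -10.5 for all genes. These comparisons share libraries with those between cell types, so the 4 sets of differences are not independent.

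The gene bodies could be read at 7 of the 10 genes. Nnat had 3 shared sites outside its start windows, Zrsr1 had 1 and Nap1l5 had none. In R1 ESCs the bodies of 3 of 7 genes, Peg3, Igf2r and Peg10, were in the 35% to 65% band, against 56.5% of 14133 genes, and in Tet/Tet ESCs 5 of 7 were, with Impact and Grb10 besides, against 56.9%. In R1 neurons only the body of Airn was, against 6.80% of all genes, and in Tet/Tet neurons none of the 7 was, against 0.984%. All 7 bodies were higher in R1 neurons than in R1 ESCs by at least 10 points, as were 95.2% of all genes, and none was lower, against 0.0991%. At Peg13 this difference was exactly 10 points, with 1 of 5 sites higher and 4 equal. With each library's own sites it was 7.14 points at Peg13 and 5.64 at Peg3, and 5 of 7 bodies passed the limit. Over shared sites, all 7 bodies were lower in Tet/Tet neurons than in Tet/Tet ESCs, as were 80.2%, and none was higher, against 0.821%. All 7 were also lower than in R1 neurons, as were 96.7%, and none was higher, against 0.00708%. Between the ESC lines, the bodies of Impact and Grb10 were higher in Tet/Tet by 11.0 and 14.3 points, and that of Peg13 was lower by 23.3, where 13.8% of all genes were higher and 5.58% lower. The levels in R1 neurons were 89.2% ± 22.0 over 20 sites at Peg3, 89.5% ± 25 over 29 at Peg10, 96.4% ± 3.56 over 12 at Impact, 89.5% ± 13.1 over 17 at Grb10 and 100% at all 5 sites of Peg13. In Tet/Tet neurons the 7 bodies lay between 11.9% and 30.7%.

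Airn and Igf2r lie antisense to each other, and their records share sites. The 17 sites of the Airn start belong to the body of Igf2r, and the 67 sites of the Igf2r starts belong to the body of Airn. With the start windows of the other gene left out, which was chosen after seeing the data, the body of Airn was at 56.1% ± 37.0 in ESCs and 87.6% ± 18.2 in neurons of R1, and 56.6% ± 35.5 and 20% ± 18.8 in those of Tet/Tet over 50 sites. The body of Igf2r was then at 63.5% ± 28.4, 66.9% ± 31.4, 91.1% ± 16.4 and 22.5% ± 20.4 over 43 sites. In R1 neurons the Airn start at 48.3% thus lay between a low Igf2r start and a highly methylated body, and the intermediate value of the Airn body was lost. In ESCs of both lines the body of Airn came into the 35% to 65% band, from 26.5% in each. The body of Igf2r left the band in Tet/Tet ESCs, from 48.5%.

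**Figure D4:**
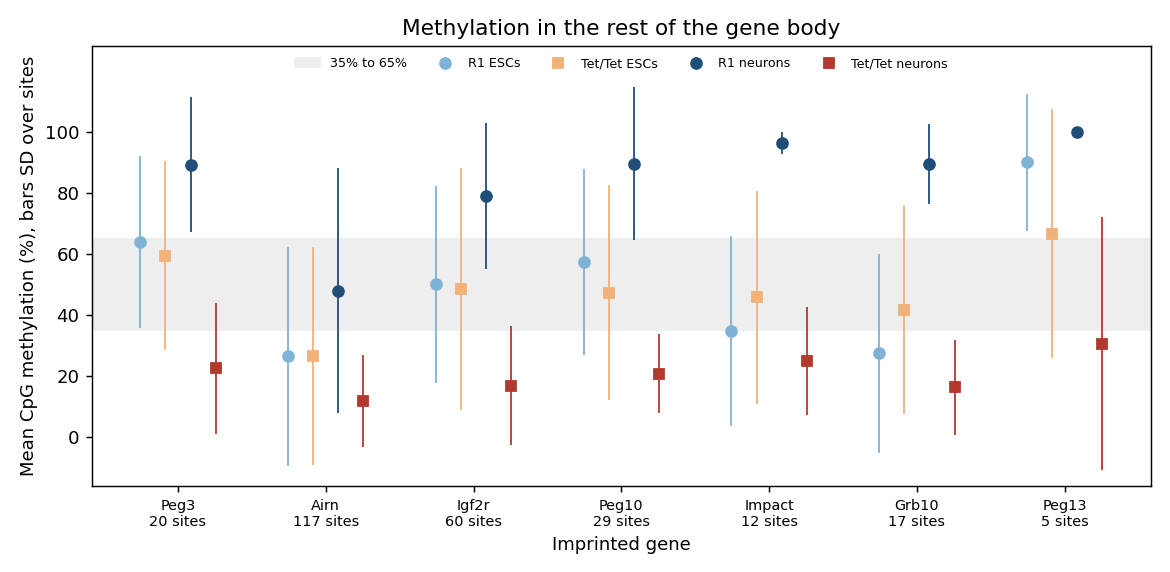
Mean CpG methylation in percent over the gene body outside the start windows, for the 7 imprinted genes with at least 5 shared sites (horizontal axis, with their number), with 1 point for each library and bars for the SD over sites. R1 neurons lie from 79.0% to 100% except at Airn (48.0%), and Tet/Tet neurons lie from 11.9% to 30.7%.

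Peg13 lay in the 35% to 65% band in R1 ESCs, and so did the starts of 1991 other genes. Their median difference between R1 neurons and R1 ESCs was 41.0 points, with quartiles of 34.1 and 48.6, and 1966 of them were higher by at least 10 points, so the difference of 43.8 points at Peg13 lay within those quartiles. None of the 10 genes began there in Tet/Tet ESCs, where 1896 other genes did and differed by a median of -33.8 points in neurons. Of genes that began under 25% in R1 ESCs, 9.37% reached the 35% to 65% band in R1 neurons, and of the 9 imprinted genes that began there 5 did. In Tet/Tet, 0.0625% of genes under 25% in ESCs reached the band in neurons, and 0 of 9 imprinted genes did. With the smallest Euclidean distance over the 4 libraries as the measure, the 5 genes most like Peg13 among 13386 candidates were Nt5c1b, Xdh, 4933415F23Rik, Fshr and Gm43549. Nt5c1b was the nearest at 12.9 points, with 46.8%, 80.8%, 95.7% and 20.7%.

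Genes beside these loci were compared from a fixed list of 13 hosts and neighbours, of which 12 had a value. At their starts 7 of 12 were higher in R1 neurons than in R1 ESCs, against 47.1% of all genes, with a median difference of 13.0 points beside 8.51. In R1 neurons 2 of 12, Usp29 and Slc22a3, lay in the 35% to 65% band, against 8.61% of all genes. Sgce has the same 19 sites as Peg10. The start windows of Usp29, Blcap, Commd1 and Herc3 hold sites of imprinted gene windows and further sites of their own. Usp29, Blcap, Commd1 and Herc3 were all among the 7 that were higher, so this count is not independent of the imprinted genes. Trappc9, the host of Peg13, was at 4.16%, 6.16%, 8.86% and 3.66% over 46 sites at its own starts, and Kcnk9, an imprinted potassium channel gene beside it, at 2.11%, 1.99%, 6.68% and 2.99% over 91. Both stayed under 10% in every library. Of 10 further genes with marks from the oocyte, 6 had a value in all 4 libraries. Among them 5 were higher in R1 neurons than in R1 ESCs, against 47.1% of all genes, by a median of 29.7 points over the 6. In R1 neurons 2 of the 6, Mest and Nespas, lay in the 35% to 65% band, against 8.61% of all genes. In Tet/Tet neurons 5 were lower than in R1 neurons, against 50.9%. Mest was at 11.0% ± 18.9, 46.9% ± 31.6, 55.4% ± 35.1 and 15.7% ± 14.8 over 43 sites, and like Peg13 and Zrsr1 it was higher in Tet/Tet ESCs than in R1 ESCs. Slc38a4, an amino acid transporter gene, went from 23.3% ± 24.4 to 74.5% ± 32.4 in R1 and from 25.5% ± 25.8 to 14.5% ± 16.1 in Tet/Tet over 32 sites. Mcts2, a retrogene of a translation factor, went from 2.74% ± 6.19 to 15.9% ± 18.6 in R1 and from 1.05% ± 1.81 to 0.733% ± 1.98 in Tet/Tet over 37. Nespas was at 7.83%, 5.42%, 42.2% and 10.7% over 86 sites, and thus under 25% in all but R1 neurons. Gnas, whose record overlaps that of Nespas on chromosome 2, was at 4.64%, 5.14%, 29.8% and 6.24% over 345. These genes are therefore not separate loci. Zdbf2 stayed between 0.982% and 1.78% in all 4 libraries over 99 sites at its annotated starts. Snrpn, Kcnq1ot1, Plagl1 and Inpp5f were not analysed here in Tet/Tet neurons.

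Genes that keep imprints were read from a list of 10. Zfp445, Dnmt1 and Dnmt3l were not analysed here in Tet/Tet neurons, and the other 7 had a value. At their starts 3 of 7 were higher in R1 neurons than in R1 ESCs, namely Zfp57, Dppa3 and Uhrf1, against 47.1% of all genes, with a median difference of 8.75 points over the 7, close to that of all genes. Zfp57, which encodes the factor that reads the marked hexamer, was at 2.62% ± 3.67, 2.80% ± 3.73, 23.6% ± 24.3 and 2.01% ± 3.33 over 18 sites. Dppa3, which protects marks in the early embryo, was at 26.6% ± 21.9, 26.1% ± 27.9, 85.5% ± 26.2 and 11.7% ± 11.2 over 14. Trim28, the partner that ZFP57 recruits, was at 3.0%, 5.99%, 11.0% and 1.79% over 39. None of the 7 was in the 35% to 65% band in any library, where 11.1%, 10.6%, 8.61% and 0.601% of all genes were.

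The ZFP57 hexamer TGCCGC was searched on both strands within 1 kb of the gene start, and it was found at 7 of the 10 imprinted genes. It was present in 28.6% of such windows over all 55413 genes and in 56.6% of the 18978 that touch a CpG island. The imprinted genes had a median of 3.5 hexamers and 88 CpGs in these windows, and all genes had medians of 0 and 25. Windows that touch a CpG island had a median of 1 hexamer. Peg3, Nnat and Peg13 held 6 each, Airn and Nap1l5 held 5 each, Peg10 held 2 and Igf2r held 1. Impact, Grb10 and Zrsr1 held none there, but had 6, 9 and 2 over all their start windows. Of the 5 genes that were intermediate in R1 neurons, 4 were among those with 5 or more hexamers, and so was Peg13. The share of all genes with 5 or more was not computed, so no link between hexamers and level can be read from this count. Shared CpGs within a hexamer were few, between 1 and 5 at each of 7 genes and none at the other 3. At Airn 2 such CpGs averaged 48.9% in R1 neurons beside 48.2% for the other 15, at Peg13 3 averaged 84.9% beside 85.0%, and at Nnat 3 averaged 37.2% beside 43.7%. At Impact 3 averaged 50.9% beside 47.9%, at Grb10 5 averaged 11.0% beside 16.9%, and the single ones of Nap1l5 and Igf2r were at 47.4% and 0% beside 54.0% and 18.7%.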

How the data were processed

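Genomic DNA of 4 mouse cultures was digested with MspI and sequenced by RRBS. Per the study's methods and processing notes, the authors trimmed reads with Trim Galore 0.6.4, mapped them to mm10 with Bismark 0.19.0 and called CpGs with MethylDackel 0.3.0. The deposited tables hold the percent of reads with a cytosine at each CpG, with no read totals and no scaling between libraries. The Fisher test of the study's methods therefore could not be made. The genes and lists were chosen with earlier results of these data known.

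With Python 3.11.15 and numpy 2.4.6, sites were assigned to windows of 1000 bp to either side of each GENCODE M21 transcript start, overlapping windows of a gene were joined, and the other sites of the record made up the body. Means were taken over sites listed in all 4 libraries, with at least 5 sites. A mean from 35% to 65% was counted as intermediate, and region means at least 10 percentage points apart as changed. The share of all genes passing the same limit is given beside counts of members and listed genes. CpG islands were at least 200 bp long with 50% GC and an observed over expected ratio of 0.6. The named genes were the 10 members and lists of neighbours, other oocyte-marked genes, genes for upkeep of imprints and cell type markers, with the 5 genes most like the members that were intermediate in R1 ESCs. The calculation was tested on simulated data with fixed shifts, which checks the arithmetic of region means and not the effect of read numbers. Alternatives were each library's own sites, MspI fragments of 40 to 220 bp, means of 100 bp stretches, medians, at least 10 sites, windows of 500 bp and 2 kb, the gene start alone, bands of 40% to 60% and 30% to 70%, a difference of 20 points, and sites listed in both libraries compared. Figures were drawn with matplotlib 3.10.9.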

Additional observations from a re-analysis of the deposited data

Results flagged for a closer look

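At the starts of 3 of the 10 genes, neurons were above ESCs in R1 and below them in Tet/Tet, past 10 percentage points in each. The same held for 20.7% of all genes. Impact differed by 28.3 points in R1 and -12.7 in Tet/Tet, a gap of -40.9 points. Nnat differed by 31.2 and -10.7, a gap of -41.9. Peg13 differed by 43.8 and -57.3, a gap of -101 points. Peg13 also differed in opposite directions between the lines by cell type, with Tet/Tet minus R1 at 41.2 points in ESCs and -59.9 in neurons, which is the same gap of -101 points over the same 4 values. With 1 library per condition these gaps were not tested. In either line, cell type cannot be told apart from the sequencing project. For Impact, the value in Tet/Tet was under 10 points with 6 of the alternative settings, and it was -0.549 at the gene start alone. For Nnat it was likewise under 10 points with 6 of them. The lower mean of Impact in Tet/Tet neurons came from its windows farthest downstream of the gene start.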

How the results depend on the processing

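No paired analysis was possible because each condition had 1 library, and for the same reason no library could be left out. Of 227 counts recomputed with alternative settings, 204 were within 1.5 times the value given, 23 were not, and of 552 differences at single genes 509 stayed on the same side of 10 percentage points. Some of these could not change. The 64 differences with at least 10 sites were fixed, since this setting drops regions but leaves each mean as it was. CpG islands alone likewise left the starts of Peg3, Airn, Peg10 and Nap1l5 unchanged, as all their shared sites there lie in islands. No difference at a start changed sign past 10 points. At the body of Airn the difference between Tet/Tet neurons and Tet/Tet ESCs was -14.6 points as a mean and 2.54 as a median of sites. With each library's own sites, 2 starts were intermediate in R1 ESCs in place of 1, and with windows of 500 bp 1 was in Tet/Tet ESCs, in place of 0. The count of 5 intermediate starts in R1 neurons lay between 4 and 5 with every setting. Impact left the band with medians (32.9%), windows of 500 bp (65.9%) and the gene start alone (34.2%), and Airn left it with own sites (66.6%).

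Among bodies, 5 were intermediate in R1 ESCs with means of 100 bp stretches in place of 3. In Tet/Tet ESCs 2 of 5 were in MspI fragments and 3 with medians, in place of 5 of 7. In R1 neurons 0 were in MspI fragments, with stretches or with medians, in place of 1. In Tet/Tet neurons 1 was with own sites, with stretches or with a band of 30% to 70%, in place of 0. The 3 starts lower in Tet/Tet neurons than in Tet/Tet ESCs became 1 in MspI fragments, at the gene start alone, in CpG islands alone (chosen after seeing the data) and with a limit of 20 points. Between the ESC lines, 1 start was higher and 0 lower with a limit of 20 points, in place of 2 and 1, and 2 were lower with windows of 2 kb. For bodies in the same comparison, 0 were higher with 20 points in place of 2, and in place of 1 lower there were 3 with own sites and 0 in MspI fragments or with at least 10 sites. The 7 bodies lower in Tet/Tet neurons than in Tet/Tet ESCs were 4 of 5 in MspI fragments. The cause of these shifts was not tested.

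The number of reads per site is unknown, and no minimum of reads was set. Values at Peg3 (10 sites) and at the body of Peg13 (5 sites) are the thinnest. An intermediate mean does not separate alleles, cells or reads, and the SD over sites says nothing of the spread between cultures.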
